A study of Mus musculus with 8 samples.

Results

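The 4 genes of the chromosomal passenger complex, Birc5 (Survivin), Cdca8 (Borealin), Incenp and Aurkb (Aurora B), were followed in mouse liver after partial hepatectomy. They were taken as all probes whose RefSeq transcript belongs to one of these genes, which gave 5 probes for 4 genes out of 18316 genes with a named probe on the array. Birc5 (gene ID 11799, chromosome 11) was read by probe A_51_P230103, designed on transcript NM_001012273, and Aurkb (gene ID 20877, chromosome 11) by A_51_P415059, on NM_011496. Incenp (gene ID 16319, chromosome 19) was read by A_51_P264064, on NM_016692. Cdca8 (gene ID 52276, chromosome 4) was read by 2 probes on NM_026560, A_51_P155142 (probe 1) and A_52_P392544 (probe 2). Each probe had 1 spot on each array.

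The study measured total RNA of liver on 8 Agilent 1-colour arrays that cross 2 genotypes with 4 times, 0, 24, 36 and 48 h after hepatectomy. Mxcre+ mice are described by the design text as Survivin-deleted and Mxcre- mice as wild type for Survivin, both on a 129/SV/B6 background. Mx-Cre is a recombinase under an interferon-responsive promoter that poly(IC) switches on, in hepatocytes and in blood-forming and other cells, so its action is not limited to hepatocytes. Mice of both genotypes had been irradiated and transplanted with bone marrow 2 months before, and had received poly(IC) 1 week before. A protocol note in the labels instead places the week between hepatectomy and sampling, in conflict with the hours in titles and sample characteristics, which were used here. The labels of the 0 h livers name these treatments and no hepatectomy. The labels do not say whose marrow was given, whether an array held 1 animal or a pool, or which animals were male and which female, and they give no age at hepatectomy. With 1 array per genotype and time no spread between animals could be measured.

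After part of the liver has been cut away, the remaining hepatocytes, which seldom divide in the adult, re-enter the cell cycle together. The chromosomal passenger complex directs mitosis: Survivin, Borealin and the N-terminal part of Incenp place the complex on centromeres and later on the spindle midzone, and Incenp binds and activates the kinase Aurora B there. Survivin also belongs to the inhibitor of apoptosis family, and transcripts of all these subunits are known to peak in G2 and mitosis of dividing cells.

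The start-site sequences of Birc5 and Cdca8 are shown because these were the 2 members for which one was available. They are 300 bases each, 250 before and 50 from the start site on, from RefSeq on GRCm38.p6, which is another build than the mm9 named in the array headers. Birc5 lies on the plus strand (chr11:117848987-117849286) and Cdca8 on the minus strand (chr4:124936868-124937167), and both are written 5′ to 3′ along the gene. Capitals mark matches to TTTGAA, a cell cycle homology region, and to CCAAT, which reads ATTGG where the match is on the other strand.
Birc5: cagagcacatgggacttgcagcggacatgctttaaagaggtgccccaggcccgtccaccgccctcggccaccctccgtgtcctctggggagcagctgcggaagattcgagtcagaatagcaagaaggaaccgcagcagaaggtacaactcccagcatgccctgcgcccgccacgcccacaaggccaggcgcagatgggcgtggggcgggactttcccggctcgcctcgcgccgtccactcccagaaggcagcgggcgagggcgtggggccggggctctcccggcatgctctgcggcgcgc
Cdca8: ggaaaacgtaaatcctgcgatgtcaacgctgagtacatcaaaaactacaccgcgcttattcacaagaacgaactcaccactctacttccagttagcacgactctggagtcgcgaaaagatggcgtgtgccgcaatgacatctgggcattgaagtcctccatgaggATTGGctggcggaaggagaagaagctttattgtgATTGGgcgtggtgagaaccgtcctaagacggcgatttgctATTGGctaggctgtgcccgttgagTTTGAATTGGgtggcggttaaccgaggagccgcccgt
Both strands were searched. The Cdca8 window held 4 CCAAT matches, all on the other strand, and 1 TTTGAA match, which shares a base with the last CCAAT match in TTTGAATTGG. The Birc5 window held 0 matches to either. GGCGG, the core of a cell cycle dependent element, was found 3 times in each window, and TTTNNCGC, an E2F motif, was found 0 times in both. Among 32851 promoters of the same length, 37.4% held CCAAT, 17.9% held TTTGAA, 48.8% held GGCGG and 5.17% held TTTNNCGC. These matches describe letters only and were not tested for use by any factor.

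A level here is the log2 intensity of a probe less the 75th percentile of its array, and the error of a single level or difference is the scanner's own spot and background error, which leaves out differences between animals. All 5 probes entered the tests, for which a probe had to be well above background on at least 2 arrays. Birc5, Incenp and Cdca8 probe 1 were well above background on all 8 arrays. Aurkb and Cdca8 probe 2 were so on 4 arrays, those of 36 and 48 h, and passed the filter through these times alone. No level of one probe is set against that of another.

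Between 60.2% and 66.0% of the 43379 spots of an array were well above background. The arrays lay on 2 slides, each scanned in its own run, with the 0 and 24 h arrays of both genotypes on one and the 36 and 48 h arrays of both on the other. Slide therefore cannot be told apart from time for 36 and 48 h against 0 and 24 h, whereas each genotype pair shared a slide. All 8 measured hepatocyte markers were above background on all arrays. The mean level of 4 Y-linked genes was alike within the pairs of 0 h (-6.39 in Mxcre-, -6.09 in Mxcre+) and 24 h (-0.86 and -1.37), and differed within those of 36 h (-1.56 and -6.47) and 48 h (-0.76 and -6.63). The 9 measured neutrophil markers had median differences, Mxcre+ minus Mxcre-, of -3.23, -0.92, 1.81 and 2.70 at 0, 24, 36 and 48 h. The 9 macrophage markers had -0.72, -0.48, 0.95 and 0.26 in the same order. T and NK cell markers (8 tested) had -0.53, -0.29, -0.31 and -0.59, and erythroid markers (5 tested) -0.48, -0.52, -0.53 and -0.63. The part of these blood cell markers in the differences below was not tested. The Y-linked level was entered as a covariate in the fits of genotype and of time, and its effect is given where it changed a sign or a call, and for Birc5. The tests of a changed difference and the changes within 1 genotype had no such covariate. In these, a genotype difference that changed between early and late pairs cannot be told apart from the Y-linked mismatch.

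Birc5, the subunit targeted for deletion, was lower in Mxcre+ than in Mxcre- liver at each of the 4 times, and the gap was widest at 48 h. At 0, 24, 36 and 48 h the Birc5 level in Mxcre- liver was -0.25, -0.55, 1.53 and 5.03, from intensities of 284 to 10734 units. The 4 levels in Mxcre+ liver were -2.80, -3.49, -1.58 and -1.20, from intensities of 31.6 to 193 units. The highest Mxcre+ level, at 48 h, lay below the lowest Mxcre- level, at 24 h. How many of all probes separate the genotypes in this way was not counted. Birc5 remained well above background on every Mxcre+ array. The sources used here do not say where the probe lies relative to the deleted part of the gene, so its signal does not measure the share of deleted cells. In whole liver, fewer cells that carry a transcript and less of it in each cell cannot be told apart.

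**Figure D1:**
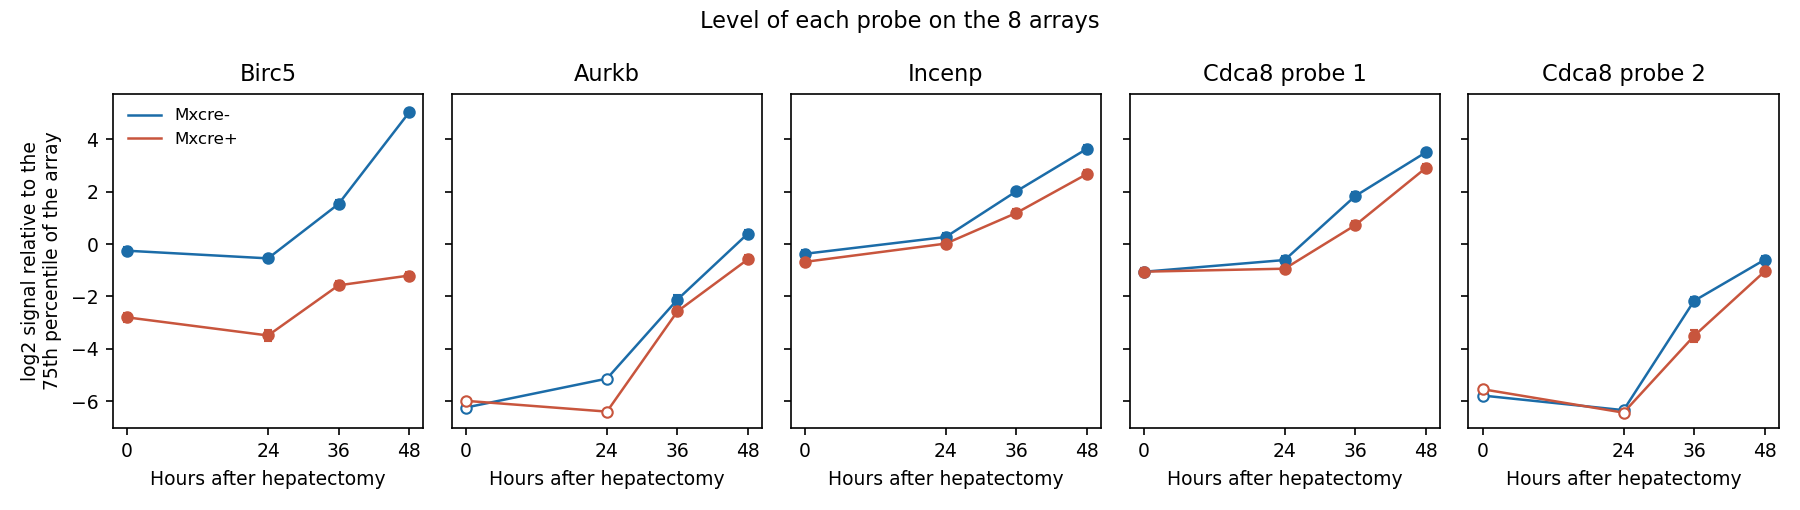
Level of each probe (log2 signal less the array's 75th percentile) against hours after hepatectomy, with 1 point per array and error bars of the scanner's spot error. Blue is Mxcre-, red is Mxcre+, and open points were not well above background. Every probe was highest at 48 h in both genotypes, where Birc5 reached 5.03 in Mxcre- and -1.20 in Mxcre+.

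The Birc5 difference, Mxcre+ minus Mxcre-, was -2.55 ± 0.23 at 0 h, or 5.84-fold lower. It was -2.95 ± 0.27 (7.71-fold) at 24 h and -3.11 ± 0.21 (8.63-fold) at 36 h. These 3 gaps were close to each other. At 48 h the difference was -6.23 ± 0.21, or 75.2-fold lower. Probes at least 2-fold lower made up 2.23%, 1.18%, 2.18% and 3.02% of those above background on both arrays of 0, 24, 36 and 48 h. By size, Birc5 had the 48th lowest difference of 24828 probes at 0 h, the 9th of 24131 at 24 h, the 15th of 24088 at 36 h and the 2nd of 24312 at 48 h, where Cyp4a12a, named after its value was seen, was the lowest at -6.29. The Birc5 differences depended on the background correction: with a normal-exponential model they were -0.77, -0.55, -1.95 and -5.36.

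Averaged over the 4 times, Birc5 was lower by -3.71 ± 0.67 (SE, limma, 4 pairs of arrays), a 13.1-fold difference with an unadjusted limma p of 0.00267 and an adjusted p of 0.721. This was the 2nd lowest estimate of the 27661 probes tested, after the Y-linked gene Ddx3y at -4.10. No probe passed an adjusted p of 0.05 in this comparison (0 of 27661, 0.0%), although 1901 had an unadjusted limma p under 0.05. Within slides the Birc5 difference was -2.75 for the pairs of 0 and 24 h and -4.67 for those of 36 and 48 h. Without the 48 h pair it was -2.87, and with the Y-linked level as a covariate -2.57. The pairs of 0 and 24 h, alike in Y-linked level, gave 5.84-fold and 7.71-fold by themselves. Both were much smaller with the normal-exponential background, as given above. The part of the Y-linked mismatch in the Birc5 difference was not tested.

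The Birc5 time course differed in size between the genotypes. In Mxcre- liver the level at 48 h was 38.9-fold that at 0 h (log2 difference 5.28 ± 0.20), and 11.3-fold that at 36 h (3.50 ± 0.20). In Mxcre+ liver the level at 48 h was 3.03-fold that at 0 h (1.60 ± 0.23) and 1.30-fold that at 36 h (0.37 ± 0.21). From 24 to 36 h the log2 differences were close, with 2.08 ± 0.21 in Mxcre- and 1.92 ± 0.27 in Mxcre+. This closeness depended on the background correction. With the normal-exponential model the change from 24 to 36 h was 0.98 averaged over genotypes. The genotype gap was then wider at 36 h than at 24 h, as given above. The change from 0 to 48 h was 3.69 smaller on the log2 scale in Mxcre+ (-3.69, the 16th lowest of 22442 probes above background on all 8 arrays), and most of that arose from 36 to 48 h (-3.12). In Mxcre- liver Birc5 had the 22nd largest change from 0 to 48 h of these probes, and in Mxcre+ liver the 583rd. Between these times the Y-linked level went from -6.39 to -0.76 in Mxcre- and from -6.09 to -6.63 in Mxcre+. The part of this in the unequal Birc5 changes was not tested.

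The tests of a changed difference did not pass for Birc5. Its difference at 36 and 48 h against that at 0 and 24 h was -1.92 ± 1.15 (limma, adjusted p = 0.671). Y-linked levels differed within the late pairs alone, so that mismatch and the later time cannot be told apart here. No probe passed in this comparison (0 of 27661, 0.0%, with 2219 at an unadjusted limma p under 0.05). Its difference after the operation against that at 0 h was -1.55 ± 1.53 (limma, adjusted p = 0.957), where 0 of the 5 member probes and 44 probes in all, 0.159%, passed. Without the 48 h pair these estimates were -0.36 and -0.48, so they rested on that pair. With the normal-exponential background the late comparison was -3.00 for Birc5 and passed (limma, adjusted p = 0.0270), as did 3 of the 5 member probes in all, in a setting where 8318 probes passed and the median over probes moved from -0.03 to 0.43.

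**Figure D2:**
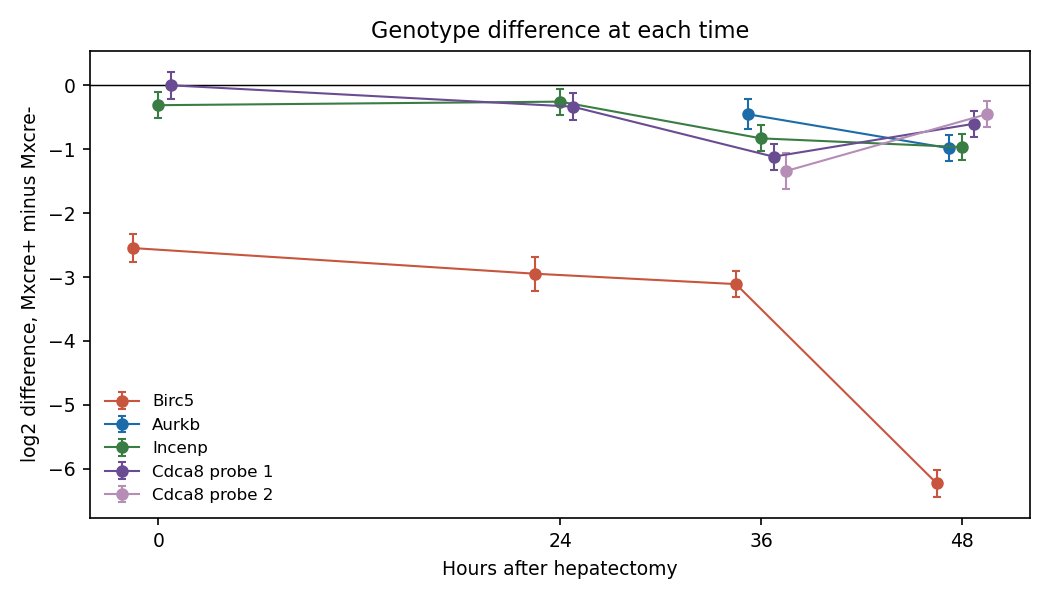
Genotype difference (log2, Mxcre+ minus Mxcre-) of each probe at each time, where both arrays were above background, with bars of the combined scanner error of the 2 spots; points are shifted slightly sideways. Birc5 lies between -2.55 and -6.23, and the other probes lie between 0.00 and -1.34.

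Cdca8 encodes Borealin, which joins Survivin and Incenp in the targeting module. Probe 1 in Mxcre- liver read -1.06, -0.61, 1.83 and 3.50 over the successive times 0, 24, 36 and 48 h. In Mxcre+ liver probe 1 read -1.06, -0.94, 0.72 and 2.90. The genotypes were level at 0 h and overlapped over the time course, and 36 h was the time when Mxcre+ lagged most. With probe 2 the levels were -2.17 at 36 h and -0.60 at 48 h in Mxcre-, against -3.51 and -1.05 in Mxcre+, and no array of 0 or 24 h was well above background. Both probes thus showed the wider gap at 36 h.

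The Cdca8 difference with probe 1 was 0.00 ± 0.21, -0.33 ± 0.21, -1.11 ± 0.20 and -0.60 ± 0.20 over these times. With probe 2 it was -1.34 ± 0.28 at 36 h and -0.45 ± 0.21 at 48 h. At 36 h these were 2.17-fold and 2.53-fold lower, and 1.74% and 1.09% of probes had a difference as low or lower. The log2 difference of 48 h over 36 h was larger in Mxcre+ (2.18 and 2.46 with the 2 probes) than in Mxcre- (1.67 and 1.57). Over the 4 times the estimates were -0.51 ± 0.20 and -0.41 ± 0.28 (limma, adjusted p = 0.721 and 0.760). The probe 2 estimate turned positive on the pairs of 0 and 24 h alone (0.07), with the Y-linked covariate (0.05) and with the normal-exponential background (0.18).

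Incenp encodes the scaffold that holds the targeting module and the kinase together. The Incenp levels of Mxcre- liver were -0.37, 0.27, 2.02 and 3.64 over the 4 times, and those of Mxcre+ liver -0.68, 0.02, 1.19 and 2.67. Each level was above that of the time before in both genotypes, and each Mxcre+ level lay below the Mxcre- level of its time.

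The Incenp difference was -0.31 ± 0.21 at 0 h and -0.25 ± 0.21 at 24 h, little beyond the scanner's error. It was -0.83 ± 0.20 (1.77-fold) at 36 h and -0.96 ± 0.20 (1.95-fold) at 48 h, where 3.28% and 3.24% of probes had a difference as low or lower. Over the 4 times it was -0.59 ± 0.16 (limma, unadjusted p = 0.0157, adjusted p = 0.721), with -0.28 on the pairs of 0 and 24 h and -0.90 on those of 36 and 48 h. The difference between these sets of pairs, which also differ in Y-linked match, was -0.62 ± 0.17 and did not pass (limma, adjusted p = 0.606). With the normal-exponential background it was -0.95 and passed, as did that of Cdca8 probe 1 at -0.96 (limma, adjusted p = 0.0422 for both). Birc5 and Incenp were lower in Mxcre+ at all 4 times and Cdca8 probe 1 was not. Among probes above background on all 8 arrays, 7.51% were lower at all 4 times.

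Aurkb encodes the kinase of the complex, which corrects faulty attachments of chromosomes to the spindle and promotes cytokinesis. It was not well above background at 0 or 24 h in either genotype. In Mxcre- liver its level was -2.12 at 36 h and 0.40 at 48 h, and in Mxcre+ liver -2.57 and -0.58. Mxcre+ was the lower at both times.

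The Aurkb difference was -0.45 ± 0.23 (1.37-fold) at 36 h and -0.98 ± 0.21 (1.98-fold) at 48 h. Over the 4 times the fit gave -0.61 ± 0.27 (limma, adjusted p = 0.721), which includes dim arrays at 0 and 24 h, and 0.09 with the normal-exponential background. Over Aurkb, Incenp and Cdca8 probe 1, with the dim Aurkb values of the early pairs included, the median difference was 0.00, -0.33, -0.83 and -0.96 at the successive times. Birc5 less this median was -2.55, -2.62, -2.28 and -5.27 on the log2 scale.

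With time after hepatectomy, both genotypes averaged, the transcripts of Aurkb, Incenp and Cdca8 rose by 36 h and by 48 h against 0 h. At 24 h against 0 h, 0 of the 5 probes passed (limma, adjusted p from 0.140 to 0.771), where 7.15% of all probes changed. At 36 h, 4 of 5 were higher (limma, adjusted p from 0.0227 to 0.0295), where 5.01% of all probes were called higher. At 48 h the same 4 were higher (limma, adjusted p from 0.00546 to 0.00957), where 5.49% of all probes were. Aurkb and Cdca8 probe 2 had entered the tests only because they were high at these times, so these counts are a description. The exception was Birc5, with 1.51 ± 0.94 at 36 h (limma, adjusted p = 0.303) and 3.44 ± 0.94 at 48 h (limma, adjusted p = 0.0742). The median of all probes was -0.10 at 36 h and -0.13 at 48 h in these comparisons.

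Incenp was 12.9-fold higher at 48 h than at 0 h (3.68 ± 0.23) and 4.38-fold higher at 36 h (2.13 ± 0.23). Cdca8 probe 1 was 19.2-fold higher at 48 h (4.26 ± 0.29) and 5.04-fold higher at 36 h (2.33 ± 0.29). Aurkb, dim at 0 h, was at least 26.1-fold higher at 48 h and 5.47-fold higher at 36 h, with each dim array at its own background level, the lowest signal among probes well above background. With every dim value at the highest background level of the 8 arrays these bounds were 20.2-fold and 4.23-fold. For Cdca8 probe 2 the bounds were 15.7-fold and 3.88-fold by the first rule, and 12.2-fold at 48 h and 1.59 on the log2 scale at 36 h by the stricter one. The same 4 probes passed at 36 and 48 h under the stricter one. With no filter on dim probes 2 passed at 36 h and 4 at 48 h. The calls at 36 h were lost without the 24 h pair or without the 48 h pair, and with the Y-linked covariate (0 probes each, limma, adjusted p of these 4 from 0.0517 to 0.0700), whereas 4 probes passed at 48 h in each of the fits without a pair. With the normal-exponential background 0 probes passed at 36 h and 2 at 48 h, and Aurkb and Cdca8 probe 2 were lower at 36 h than at 0 h (-0.38 and -0.36) and higher by 0.67 and 0.22 on the log2 scale at 48 h (limma, adjusted p = 0.275 and 0.639), below the bounds given above.

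The steps between neighbouring later times did not pass. At 36 h against 24 h the 5 estimates ran from 1.46 for Incenp to 3.55 for Cdca8 probe 2 (limma, adjusted p from 0.0993 to 0.431), with 0 of 5 called against 0.0723% of all probes. At 48 h against 36 h they ran from 1.55 for Incenp to 2.26 for Aurkb (limma, adjusted p from 0.235 to 0.649), with 0 of 5 called against 0.101%. The order over time was nevertheless the same in the 3 probes above background on all 8 arrays: each was higher at 36 h than at 24 h and higher again at 48 h in both genotypes, as were 4.25% of such probes. Each was also at least 2-fold higher at 48 h than at 0 h in both genotypes, as were 3.09%.

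Within each genotype the partners were much higher at 48 h than at 0 h, in Mxcre+ liver too. Incenp at 48 h was 16.1-fold its 0 h level in Mxcre- and 10.2-fold in Mxcre+. Cdca8 probe 1 was 23.6-fold and 15.6-fold, and Aurkb at least 28.5-fold and 23.9-fold, or 28.4-fold and 14.4-fold at the stricter background level. In Mxcre+ liver Cdca8 probe 1 thus had the 53rd and Incenp the 101st largest change of 22442 probes, against the 36th and 48th in Mxcre- liver. The shortfall in Mxcre+ was -0.66 for Incenp and -0.60 for Cdca8 probe 1 on the log2 scale, where 1889 and 2172 probes had one as low or lower, and -3.69 for Birc5. The part of the unequal Y-linked levels in these shortfalls was not tested.

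**Figure D3:**
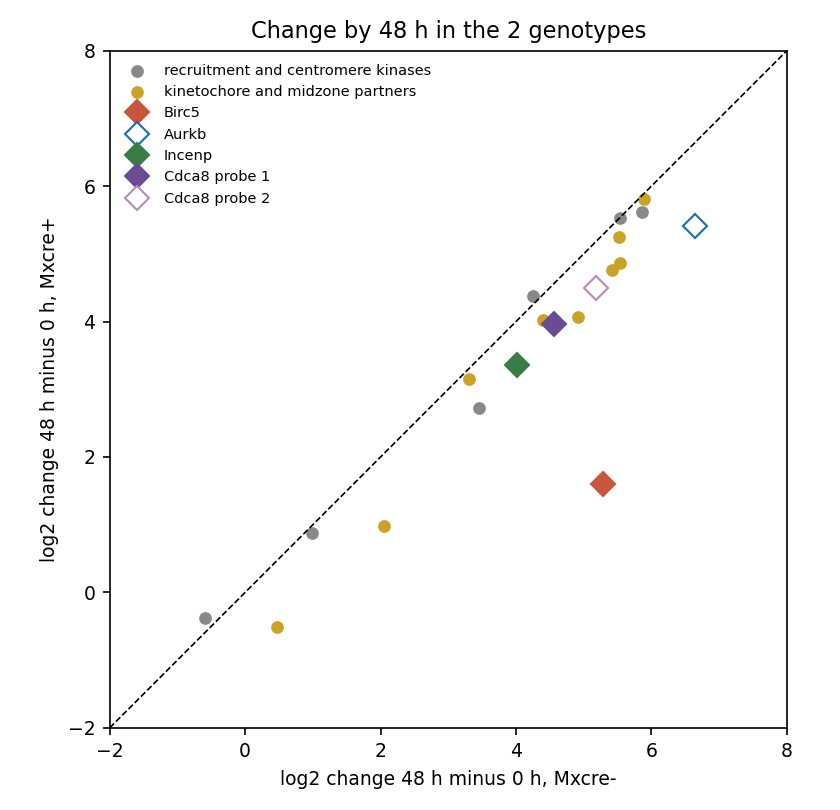
Log2 change from 0 to 48 h in Mxcre- (horizontal) against Mxcre+ (vertical) for the 5 probes and for genes of the recruitment and kinetochore lists that were above background on all arrays; open diamonds were dim at 0 h and the dashed line marks equal change. Birc5 lies far below the line, at 5.28 and 1.60, while Incenp (4.01 and 3.36) and Cdca8 probe 1 (4.56 and 3.96) lie close to it.

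The kinases and adaptors that recruit the complex to centromeres, 13 genes that include Haspin and Bub1 with mitotic cyclins and the shugoshins, were mostly called higher with time. Of the 13, 9 were called higher at 36 h and 12 at 48 h, against 6.13% and 6.94% of all genes tested, and all 13 had a negative genotype estimate, with a median of -0.54 against -0.02 over the 14142 genes tested, of which 7843 were negative. None passed for genotype (0 of 13, limma). The T and NK cell and erythroid markers had genotype medians of like size, -0.57 and -0.55. Ccna2, a cyclin of S and G2 phase, was at -0.64 ± 0.14, and Haspin, the histone kinase whose mark Survivin binds, at -0.56 ± 0.17. Plk1, a mitotic kinase, was at -0.47 ± 0.18. Bub1, whose histone mark also recruits the complex, was at -0.25 ± 0.18 and was the 1 gene not called higher at 48 h, at -0.49 ± 0.26 from 0 to 48 h (limma, adjusted p = 0.249). The list's median difference was -0.17 and -0.46 on the early pairs (0 and 24 h), and -0.64 and -0.11 on the late ones (36 and 48 h). Only 6 of the 13 were above background on all arrays, so the early medians include dim values. The others may have entered the tests through the arrays where they were high, so the counts of calls are a description. The same holds for the lists below that include dim genes.

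The kinetochore and midzone proteins on which Aurora B acts gave 17 tested genes of 18, and 12 were called higher at 36 h and 16 at 48 h (6.13% and 6.94% of all genes). Their genotype estimates were negative for 15 of 17, with a median of -0.40 and 0 called. Only 9 of the 17 were above background on all arrays, so the counts called with time are a description here too. Spc24 and Nuf2, subunits of the Ndc80 complex that holds microtubules, were at -0.82 ± 0.20 and -0.57 ± 0.14. Cenpe, a kinetochore motor, was at -0.76 ± 0.20, and Ect2, the exchange factor that starts the cleavage furrow, at -0.61 ± 0.27. Mis12, the 1 gene not called higher at 48 h, was at 0.05 ± 0.23. In the 9 genes above background on all arrays the median change from 0 to 48 h was 4.92 in Mxcre- and 4.07 in Mxcre+. The shortfall ran from -1.07 to -0.08, all smaller than that of Birc5. It was larger in the replication licensing genes, from -2.72 to -0.23 with a median of -1.14 in 11 genes.

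Replication licensing genes lay lower in Mxcre+ in all 14 tested genes at 36 and at 48 h. Of the 14142 genes tested, 7759 and 7522 were lower at these times. All 14 had a negative genotype estimate, with a median of -0.56 and 0 called. Their median difference was 0.12 and -0.06 on the early pairs, and -1.32 and -1.01 on the pairs of 36 and 48 h. The latter pairs also differed in Y-linked level. At 36 h against 0 h 10 were called higher (6.13% of all genes), and at 48 h 9 were called higher and 1 lower (6.94% and 7.74% of all genes). Mcm10 was at -1.13 ± 0.19, Mcm6 at -0.62 ± 0.44, Cdt1 at -0.60 ± 0.23 and Mcm3 at -0.60 ± 0.35. Mcm10 was the gene called lower at 48 h (-1.82 ± 0.27, limma, adjusted p = 0.0244). Unlike the list medians, it was already lower in Mxcre+ at 0 h (-0.82) and 24 h (-0.69). The 13 proliferation markers were also all negative (median -0.36, 0 called), led by Mki67 at -1.13 ± 0.42. Of these markers 11 were called higher at 48 h (6.94% of all genes). The Mki67 difference was widest at 0 h (-2.55), with -0.82, -0.02 and -1.11 at 24, 36 and 48 h. Its change from 0 to 48 h was larger in Mxcre+ (7.10) than in Mxcre- (5.66). In 5 of the 6 markers above background on all arrays that change was lower in Mxcre+.

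Of 20 regulators of cell cycle transcription, 18 had a negative genotype estimate (median -0.24, 0 called). At 48 h 7 were called higher (6.94% of all genes). Foxm1, which activates G2 and mitotic genes, was at -0.44 ± 0.15, E2f2 at -0.50 ± 0.19 and E2f1 at -0.48 ± 0.55, while Cdkn1a, the p21 inhibitor of cyclin-dependent kinases, was at 0.31 ± 0.27. E2f1 differed by 1.37 at 0 h and by -1.66 at 48 h.

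The 3 remaining lists had medians close to that of all genes, although they hold cell cycle genes such as Aurka and Cdc20. Of all 14142 genes tested, 7843 had a negative genotype estimate, and 6.94% were called higher and 7.74% lower at 48 h. The 15 partners of Survivin in apoptosis had a median genotype estimate of -0.02, with 9 negative and 0 called, and 2 were called higher at 48 h. Apaf1, which forms the apoptosome, was at -0.21 ± 0.19, and the chaperone Hsp90aa1 at 0.21 ± 0.28. The 12 Aurora relatives and phosphatases had a median of -0.08, with 9 negative, 0 called and 4 called higher at 48 h, among them the mitotic kinase Aurka (5.93 ± 0.36, limma, adjusted p = 0.00508). The 13 ubiquitin and export genes had a median of -0.08 with 8 negative and 0 called, and 2 were called higher and 1 lower at 48 h. Cdc20, which activates the anaphase ubiquitin ligase, was at 6.57 ± 0.39 from 0 to 48 h (limma, adjusted p = 0.00477).

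**Figure D4:**
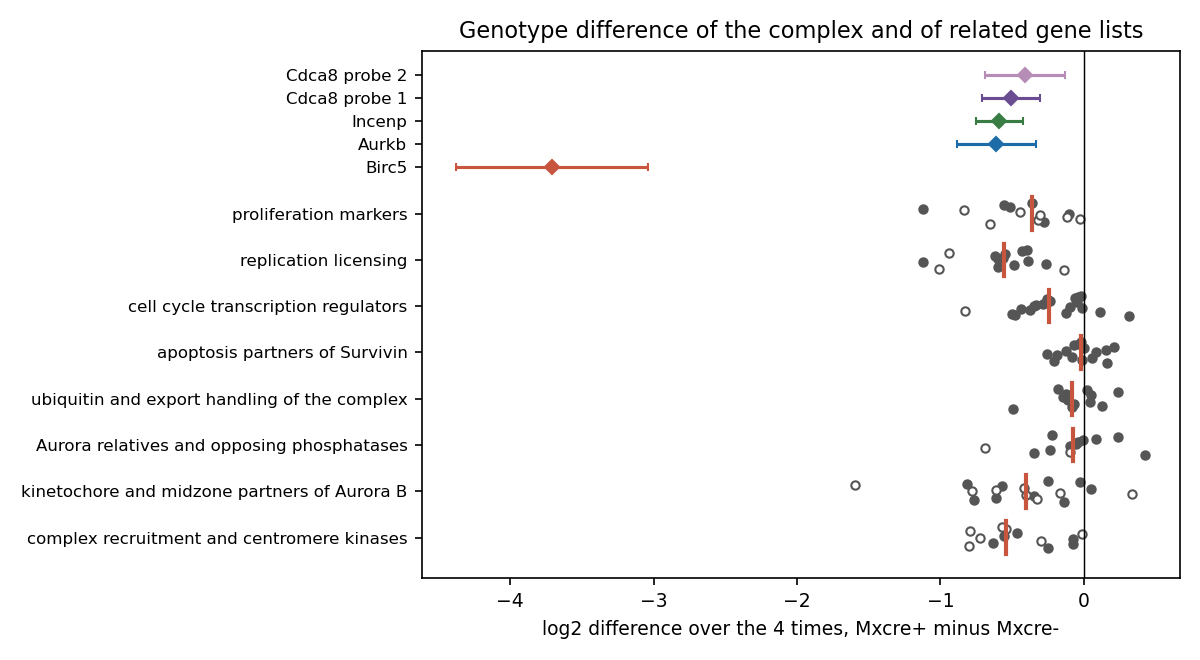
Genotype estimates (log2, Mxcre+ minus Mxcre-, over the 4 times) of the 5 probes, with bars of 1 SE, and of the genes of 8 related lists, where filled points were above background on all 8 arrays, open points were dim on some, and red bars mark list medians. Birc5 stands at -3.71 and every list median lies between -0.56 and -0.02.

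The pattern of Birc5 over the 8 arrays was unlike that of its partners. Pearson r of Birc5 with Incenp was 0.74, with Cdca8 probe 1 0.70 and with Aurkb 0.69. Among the partners r was 0.98 to 0.99. Among the genes most like Birc5 were Mbd1 (r = 0.97), Tle3, Wdr82 and Tmem29 (each r = 0.96). These genes varied far less than Birc5, which ran from -3.49 to 5.03. Mbd1 ran from 2.53 to 4.28, Tle3 from -3.27 to -1.70, Wdr82 from 1.59 to 1.93 and Tmem29 from -0.58 to -0.12. Those most like Aurkb were Stmn1, Knl1, Sgo1, Espl1 and Kif18a, most like Incenp were Sgo2a, Nuf2, Gtse1, Ndc80 and Cdca8, and most like Cdca8 were Gtse1, Tacc3, Ect2, Sgo2a and Espl1, each with r from 0.99 to 1.00. Aurkb, Knl1, Espl1 and Ndc80 were above background on 4 arrays, Kif18a on 3, Sgo1 and Gtse1 on 5 and Sgo2a on 6. Every r with one of these genes, those of Aurkb with its partners included, rests in part on dim values. These correlations over 8 arrays share genotype, time and slide and are given as a description. Without the arrays of Mxcre+ 24 h and Mxcre- 48 h, the farthest from the Birc5 median, r of Birc5 with its partners was 0.26 to 0.41, and with Mbd1, Tle3, Wdr82 and Tmem29 0.86 to 0.94.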

How the data were processed

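Per the file headers, the deposited scanner files hold a processed intensity for each spot, background-subtracted and spatially detrended by Feature Extraction 10.7.3.1 (version 10.7 per the submitters' processing notes), with no scaling between arrays. The authors' deposited matrix holds log2 values, the same median (5.51) in all 8 columns, and served as an alternative. Log2 of the processed intensity minus the array's 75th percentile over non-control spots was the value analysed. Of 41174 probes, 118 marked as outliers on an array were left out. RefSeq named 26839 of the 41056 kept. Probes well above background on at least 2 arrays were tested (27661 probes; for lists, 14142 genes by their brightest probe).

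Limma 3.58.1 (R 4.3.3, version 1.17.8 of data.table) fitted time and genotype (3 residual degrees of freedom), or in addition genotype by late times or by after operation (2 degrees). Benjamini-Hochberg adjustment ran over all probes tested, at 0.05. The p-values measure how steady a difference was over times or genotypes, since no group had replicates. The code was tested on simulated data. Differences at 1 time had no test.

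The members and gene lists were chosen with earlier results of these data known. By rule, all member probes were named, and from each list up to 4 genes with the largest genotype difference among those above background on all arrays, any past the threshold and the most opposite one; blood cell lists are given by medians, and Cyp4a12a and Ddx3y were added afterwards. For likeness, the 5 genes of highest r were named. Some genes that these rules pick are not reported here. Alternatives changed the background model, scaling, source, filter, probe choice, outlier spots, dim values, pairs included, slide and Y-linked level. The number of arrays limits the precision.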

Additional observations from a re-analysis of the deposited data

How the results depend on the processing

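Quantile scaling and the deposited matrix changed no direction and no call of the members. The normal-exponential background (offset 50, on median spot signals, since the files hold no mean signal; chosen after seeing the data) changed most. It moved the Birc5 difference to -0.77, -0.55, -1.95 and -5.36 at 0, 24, 36 and 48 h, and its late change to -3.00 (limma, adjusted p = 0.0270); the late changes of Incenp and Cdca8 probe 1 passed too (-0.95 and -0.96, both 0.0422). It gave 0 called member probes at 36 h and 2 at 48 h against 0 h. It reversed Aurkb for genotype (0.0887), after the operation (0.69), late (0.22), and at 24 h (-0.27) and 36 h (-0.38) against 0 h and 36 h against 24 h (-0.10), and Cdca8 probe 2 for genotype (0.18), after the operation (0.83), late (0.45), and at 36 h against 0 h (-0.36) and 24 h (-0.10). These 2 probes are dim at 0 and 24 h, and the cause was not tested. The pairs of 0 and 24 h alone gave 0.0739 for Cdca8 probe 2. The Y-linked covariate gave 0.0513 for Cdca8 probe 2, -0.0109 for Aurkb and -0.35 for Cdca8 probe 1 at 24 h against 0 h, and 0 called members at 36 h. Setting dim values at each array's background gave 0.29 for Cdca8 probe 2 at 24 h. Member calls at 36 h were 2 with no filter and 2 with probes above background on all arrays, where 3 of the 5 remain and Birc5 passed at 48 h (limma, adjusted p = 0.0448). With 1 pair left out, Birc5 ran from -4.10 to -2.87 for genotype, its late change from -3.49 to -0.36, that of Aurkb from -0.97 to 0.54, and 0 members were called at 36 h. Over all alternatives the probes called ran from 0 to 3390 at 24 h, 0 to 4676 at 36 h and 70 to 4548 at 48 h against 0 h, 0 to 30 and 0 to 72 for the later steps, 0 to 75 after the operation and 0 to 8318 late, and 0 for genotype. The time term of the fit already pairs the genotypes at each time, and no group had a further replicate to pair.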
